A study of Rattus norvegicus with 12 samples.

Results

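Expression of 10 dendritic cell and costimulation genes (Flt3, Zbtb46, Xcr1, Clec9a, Clec10a, Cd80, Cd86, Cd40, Cd83 and Fscn1) was examined in rat lung after inhalation of crystalline nanocellulose (CNC), rod-like crystals made from plant cellulose. The genes were chosen by symbol, and all 10 were found among the 30045 symbols of the count table. RNA was sequenced from 12 lung pieces, each from a different male rat of the Fischer 344 (F344/DuCrl) inbred strain bought at 3 months of age. The 6 control rats breathed air in a whole-body chamber, and the 6 CNC rats breathed CNC at 20 mg/m3 on 14 days (5 days in a week, 6 hours each). Lungs were taken 1 day after the last exposure. The comparison asks how lung genes differ between rats that breathed CNC and rats that breathed air, at a single concentration, a single time and in males.

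Dendritic cells take up material in the lung and carry it to lymph nodes, where they show it to T cells on MHC molecules. Conventional dendritic cells depend on the receptor tyrosine kinase Flt3 and fall into a type 1 subset, specialised in presenting dead-cell material to CD8 T cells, and a type 2 subset, which mainly engages CD4 T cells. A T cell also needs a second signal, given when the B7 proteins Cd80 and Cd86 bind Cd28, and Cd40 on the presenting cell is in turn engaged by Cd40lg on the T cell. On maturation, dendritic cells gain these proteins together with Cd83 and the actin-bundling protein fascin (Fscn1), and they migrate under the receptor Ccr7.

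Of the 10 genes 5 rose after CNC, 1 fell and 4 did not pass the test. Xcr1 (1.77-fold), Clec9a (1.71-fold) and Flt3 (1.57-fold) rose, as did the maturation protein gene Cd83 (1.45-fold) and the B7 gene Cd86 (1.41-fold). Fscn1 fell 1.22-fold. Zbtb46, Cd40, Cd80 and Clec10a did not pass. A gene was called at an adjusted p under 0.05, from the quasi-likelihood test of edgeR adjusted by Benjamini-Hochberg over all tested genes. By the same rule 24.6% of the 15019 tested genes changed, 13.2% upward and 11.4% downward. The median log2 fold change was 0.42 over the 10 genes and -0.0026 over all tested genes. All 10 passed the filter on low counts. In 4 of the 10 (Flt3, Xcr1, Clec9a and Cd83) every CNC rat lay above every air rat, a separation that 6.82% of all tested genes showed in that direction. In 0 of the 10 did every CNC rat lie below every air rat (4.7% of tested genes).

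**Figure D1:**
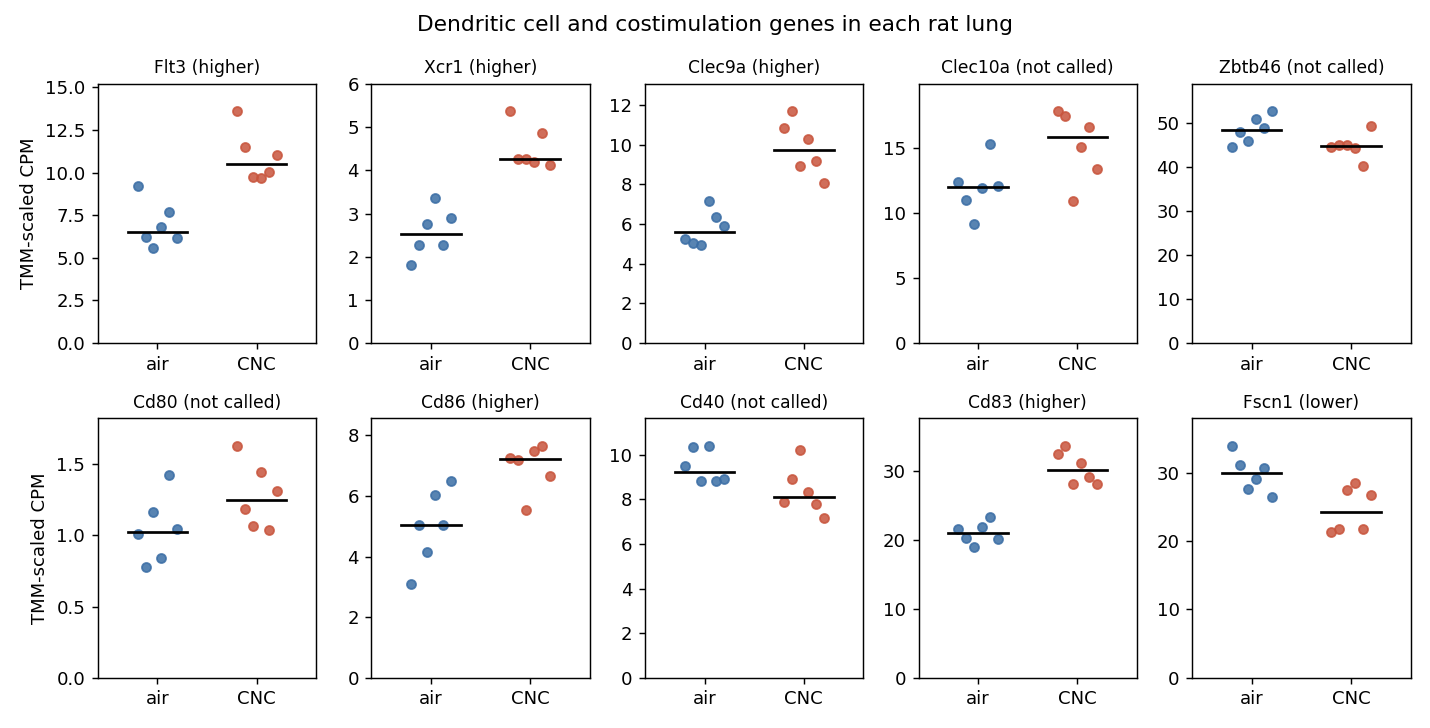
TMM-scaled counts (CPM, vertical axes from 0) of each gene in each of the 6 air rats (blue) and 6 CNC rats (red), with the group median as a bar. The groups are apart for Flt3, Xcr1, Clec9a and Cd83 and overlap for the other 6 genes.

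The libraries held 8693259 to 16603697 counts over genes. Lung identity was plain in every group, with the surfactant gene Sftpc at 10230 ± 1094 CPM in air and 13413 ± 956 CPM in CNC (n = 6 in each group, SD). CPM are counts divided by the library's TMM-scaled size throughout. A lung piece mixes many cell types, so more cells of a type and more RNA per cell cannot be told apart. Heart muscle markers, which may reflect how the piece was cut, summed to 14.9 to 452 CPM in air and 15.4 to 132 CPM in CNC. Their source was not tested. Of 14 tested circadian clock genes 7 rose and 5 fell, and 2 or 3 fell when any 1 of air replicates 1, 2, 3 and 6 and CNC replicate 4 was left out. A score of these genes ran from -0.59 to 0.06 in air and from 0.07 to 0.53 in CNC, so the groups did not overlap on it. With that score as a covariate Cd83 alone among the 10 was called (adjusted p = 0.0496 by edgeR). The log2 fold changes of Flt3 (0.75 ± 0.26, against 0.65 ± 0.12 without the score) and Xcr1 (0.73 ± 0.30, against 0.82 ± 0.15) stayed about as large while their SEs grew, and that of Clec9a was 0.54 ± 0.23, against 0.77 ± 0.12. Since the score parts the groups as the exposure does, its part in the changes and that of CNC cannot be told apart. This holds for every call lost with the score below.

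The promoters of 4 genes are shown. They are those of the type 1 pair Xcr1 and Clec9a, which rose together, and the maturation pair Cd83 and Fscn1, which moved in opposite directions. The choice was made after motif matches were seen, and Cd83 took the place of Cd86. Each runs from 250 bases before to 50 bases after the gene's start in RefSeq (build GRCr8), read 5′ to 3′ on the gene's strand. Xcr1 is at chr8:132364607-132364906 (minus strand), Clec9a at chr4:164546073-164546372 (plus strand), Cd83 at chr17:21112628-21112927 (minus strand) and Fscn1 at chr12:16723685-16723984 (minus strand). Capitals mark matches to the motifs searched, named in the next paragraph.
Xcr1: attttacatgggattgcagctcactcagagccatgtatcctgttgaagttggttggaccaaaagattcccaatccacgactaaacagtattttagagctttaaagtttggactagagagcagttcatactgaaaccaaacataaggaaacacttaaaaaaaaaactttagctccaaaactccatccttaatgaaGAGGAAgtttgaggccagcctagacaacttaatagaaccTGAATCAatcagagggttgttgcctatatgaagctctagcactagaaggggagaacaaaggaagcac
Clec9a: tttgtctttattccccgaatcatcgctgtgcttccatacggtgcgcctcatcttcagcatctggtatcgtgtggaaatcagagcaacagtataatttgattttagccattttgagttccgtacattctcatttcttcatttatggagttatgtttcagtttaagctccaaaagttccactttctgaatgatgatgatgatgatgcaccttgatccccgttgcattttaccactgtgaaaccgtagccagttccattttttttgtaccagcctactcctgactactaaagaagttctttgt
Cd83: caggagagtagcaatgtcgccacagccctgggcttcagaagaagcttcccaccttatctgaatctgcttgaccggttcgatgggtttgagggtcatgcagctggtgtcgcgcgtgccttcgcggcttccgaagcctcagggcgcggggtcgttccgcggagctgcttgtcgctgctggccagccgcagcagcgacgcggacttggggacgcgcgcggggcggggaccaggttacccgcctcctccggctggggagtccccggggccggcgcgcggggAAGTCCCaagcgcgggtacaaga
Fscn1: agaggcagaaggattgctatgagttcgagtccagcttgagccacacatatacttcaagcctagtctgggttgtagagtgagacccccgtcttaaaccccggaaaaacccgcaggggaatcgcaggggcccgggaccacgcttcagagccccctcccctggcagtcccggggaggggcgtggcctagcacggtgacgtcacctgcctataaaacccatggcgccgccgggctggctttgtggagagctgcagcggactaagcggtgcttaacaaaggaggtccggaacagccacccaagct

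Short motifs were searched on both strands in the promoters of 8 of the 10 genes; Cd40 and Clec10a were not matched, and Cd80 has 2 promoters. TGANTCA, a loosened AP-1 motif with any base in the centre, was found in the Xcr1 promoter, 17 bases before the start. It was found in 7.33% of all 33469 promoters of the same length. The Xcr1 match reads TGAATCA and is not the strict AP-1 site, which has C or G in the centre. GAGGAA, the core of sites of the myeloid factor PU.1, was found in the promoters of Xcr1 (56 bases before the start), Zbtb46 and Cd86, and in 27.6% of all. GGGANTT, the leading part of an NF-kappa B site, was found in that of Cd83 (27 bases after the start). It was also found in 1 of the 2 promoters of Cd80, and in 17.2% of all. CACGTG, the E-box bound by clock factors, was found in that of Flt3 and in 6.42% of all. The matches did not overlap each other, and the Clec9a and Fscn1 windows hold none of these 4. This set replaced a first one with longer motifs, in which an NF-kappa B form had matched the Cd86 and Fscn1 promoters, so the absence of a match depends on the letters searched. They describe letters in the sequence and are no evidence of binding.

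Both genes that mark the type 1 subset, Xcr1 and Clec9a, rose. Their estimated log2 fold changes were the largest of the 10, but the 95% intervals overlapped that of Flt3, and Flt3 was above both without air replicate 1 and with the clock score. Xcr1 encodes the receptor for the chemokine Xcl1, by which type 1 dendritic cells and CD8 T cells meet. Its level ran from 1.8 to 3.36 CPM (median 2.51) in air and from 4.14 to 5.37 CPM (median 4.26) in CNC. Every CNC rat was above every air rat. This was a log2 fold change of 0.82 ± 0.15 (SE, adjusted p = 0.000676 by edgeR), which ran from 0.73 to 0.93 over 26 other settings. The call was lost with the clock score (adjusted p = 0.180 by edgeR). These values rest on 24 to 66 reads a library.

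Clec9a encodes a lectin that senses actin exposed on dead cells and directs their antigens to cross-presentation. It was counted at 4.91 to 7.18 CPM (median 5.59) in air and at 8.07 to 11.7 CPM (median 9.73) in CNC. The groups were apart, and the log2 fold change was 0.77 ± 0.12 (SE, adjusted p = 0.000179 by edgeR). With the clock score Clec9a did not pass (adjusted p = 0.198 by edgeR). The within-rat ratio of Clec9a to Xcr1 differed between the groups by -0.05 on the log2 scale (2-sided exact permutation test over 924 splits, adjusted p = 0.682 over 11 ratios), so no unequal change of the pair was detectable. That ratio was 1.16 ± 0.26 in air and 1.10 ± 0.21 in CNC (n = 6 in each group, SD of the log2 ratio).

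Flt3, the receptor whose signal sustains dendritic cell development, rose from 6.95 ± 1.32 to 10.9 ± 1.5 CPM (n = 6 in each group, SD). Air rats ran from 5.58 to 9.22 CPM (median 6.52) and CNC rats from 9.69 to 13.6 CPM (median 10.5). The highest air rat (replicate 1) was just under the lowest CNC rat. On the log2 scale the change was 0.65 ± 0.12 (SE, adjusted p = 0.00129 by edgeR), and it did not pass with the clock score (adjusted p = 0.118). Its ligand gene Flt3lg, named for its role, was at 3.20 ± 0.41 CPM in air and 3.67 ± 0.51 in CNC (n = 6 in each group, SD) and did not pass (adjusted p = 0.282 by edgeR).

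Zbtb46, a transcription factor of the conventional dendritic cell lineage that is also expressed by endothelium in mouse, did not follow Flt3. Its level ran from 44.5 to 52.5 CPM (median 48.4) in air and from 40.1 to 49.2 CPM (median 44.6) in CNC. The ranges overlapped, with 3 CNC rats below the lowest air rat. The log2 fold change of -0.12 ± 0.05 (SE) did not pass (adjusted p = 0.11 by edgeR). The 95% interval of the fold, not adjusted for the number of genes, ran from 0.856 to 0.994. Without CNC replicates 3 and 6 together Zbtb46 was called lower (adjusted p = 0.0426 by edgeR). The log2 ratio of Flt3 to Zbtb46 was higher by 0.77 in CNC, with all 6 CNC rats above all 6 air rats (2-sided exact permutation test, adjusted p = 0.00794).

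Clec10a, a galactose-binding lectin of type 2 dendritic cells and macrophages, was at 12.0 ± 2.0 CPM in air and 15.2 ± 2.66 CPM in CNC (n = 6 in each group, SD). Air rats ran from 9.16 to 15.3 CPM (median 12.0) and CNC rats from 10.9 to 17.8 CPM (median 15.8), so the groups overlapped. The log2 fold change of 0.35 ± 0.13 (SE) missed the threshold (adjusted p = 0.0575 by edgeR). It passed without air replicate 5 (0.0218), without CNC replicate 3 (0.0114), without air replicates 4 and 5 (0.0285), without CNC replicates 3 and 6 (0.00769) and by the DESeq2 Wald test (0.0421, all adjusted p). The ratio of Clec9a to Clec10a was 1.34-fold higher in CNC (2-sided exact permutation test, adjusted p = 0.0143), with 4 of 6 CNC rats above the highest air rat.

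**Figure D2:**
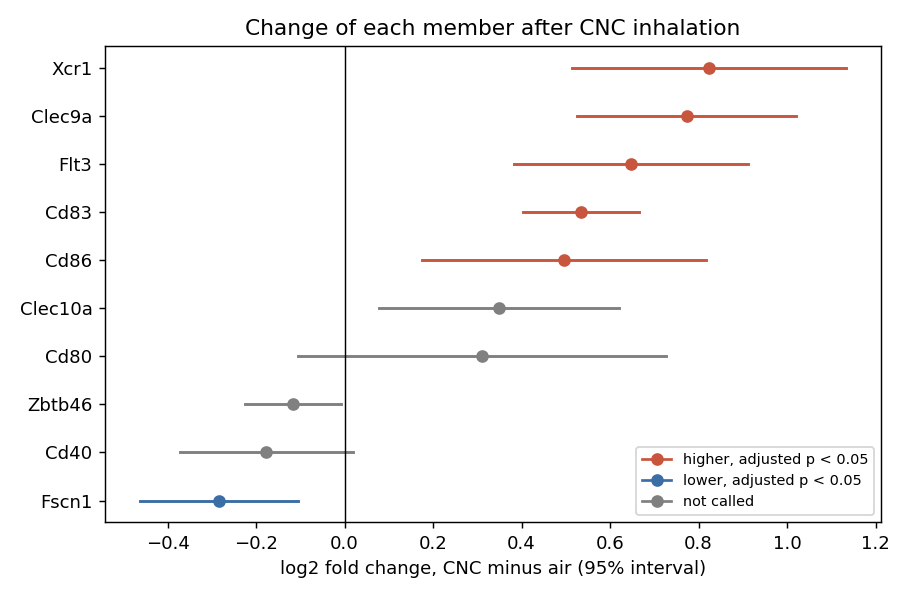
Log2 fold change of CNC against air for each gene (points) with its 95% interval (lines), in order of size; red was called higher, blue lower and grey not called. Xcr1 and Clec9a lie farthest to the right, at 0.82 and 0.77, and Fscn1 farthest to the left, at -0.28.

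Among the costimulatory genes, Cd86 rose and Cd80 did not pass. Cd86, the B7 ligand that resting antigen-presenting cells already carry, ran from 3.10 to 6.49 CPM (median 5.04) in air and from 5.53 to 7.65 CPM (median 7.21) in CNC. In 5 of 6 CNC rats it was above the highest air rat. Its log2 fold change was 0.50 ± 0.15 (SE, adjusted p = 0.025 by edgeR). Cd86 no longer passed when air replicate 3 (adjusted p = 0.0505), CNC replicate 4 (0.0523) or CNC replicate 5 (0.0505) was left out, or with the clock score (0.674). With that score the log2 fold change was 0.28.

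Cd80, the B7 ligand that is induced on activation, was the least abundant in reads, with 9 to 21 a library. It was at 1.04 ± 0.23 CPM in air and 1.28 ± 0.23 CPM in CNC (n = 6 in each group, SD), and the ranges overlapped. The log2 fold change of 0.31 ± 0.20 (SE) did not pass (adjusted p = 0.287 by edgeR), and the 95% interval of the fold ran from 0.93 to 1.66. A rise as large as that of Cd86 (1.41-fold) lies inside this interval. The ratio of Cd80 to Cd86 did not differ detectably either (log2 difference -0.23, 2-sided exact permutation test, adjusted p = 0.343).

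Cd40, the receptor through which helper T cells license dendritic cells and which B cells and endothelium also carry, ran from 8.83 to 10.4 CPM (median 9.22) in air. In CNC it ran from 7.17 to 10.2 CPM (median 8.10), with 4 of 6 rats below the lowest air rat. The log2 fold change of -0.18 ± 0.09 (SE) did not pass (adjusted p = 0.184 by edgeR; 95% interval of the fold 0.772 to 1.01). A rise of Cd40 as large as that of Cd86 or Cd83 lies outside this interval.

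Cd83, a surface protein of mature dendritic cells that stabilises MHC class II and Cd86 at the membrane, had the smallest adjusted p among the 10. It ran from 18.9 to 23.3 CPM (median 20.9) in air and from 28.1 to 33.5 CPM (median 30.1) in CNC. The groups did not overlap. Its log2 fold change was 0.53 ± 0.06 (SE, adjusted p = 1.9e-05 by edgeR), and Cd83 kept its call in all 26 other settings. Against Cd83, Cd40 was lower by 0.71 on the log2 scale of the within-rat ratio, falling from -1.14 ± 0.14 to -1.85 ± 0.20 (n = 6 in each group, SD; 2-sided exact permutation test, adjusted p = 0.00794), and all 6 CNC rats were below the air range.

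Fscn1, which bundles actin in the dendrites of mature dendritic cells and is also made by other cells, moved opposite to Cd83. It ran from 26.4 to 33.9 CPM (median 29.9) in air and from 21.3 to 28.4 CPM (median 24.2) in CNC. The groups overlapped, with 3 of 6 CNC rats (replicates 1, 2 and 5) below the lowest air rat. Its log2 fold change was -0.28 ± 0.08 (SE, adjusted p = 0.0212 by edgeR). Fscn1 no longer passed when any 1 of air replicates 1 and 2 and CNC replicates 1, 2 and 5 was left out (adjusted p from 0.0502 to 0.0570) and with the clock score (adjusted p = 0.143), where the log2 fold change was -0.46.

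As Cd83 alone did, the ratio of Fscn1 to Cd83 separated the groups completely. Its log2 value fell from 0.50 ± 0.12 in air to -0.31 ± 0.27 in CNC (n = 6 in each group, SD), a 1.76-fold drop (2-sided exact permutation test, adjusted p = 0.00794). Its raw p of 0.00216 is the smallest that 924 splits allow. Against Ccr7, the receptor that guides mature dendritic cells to lymph nodes, Fscn1 did not differ detectably (log2 difference -0.17, adjusted p = 0.19), but it did without air replicate 4 (adjusted p = 0.0208). Ccr7 itself was at 10.6 ± 2.25 CPM in air and 9.67 ± 1.18 CPM in CNC (n = 6 in each group, SD) and did not pass (adjusted p = 0.466 by edgeR).

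Markers of other cell types that make these genes moved as well. Of 18 endothelial markers 16 fell and 0 rose (median log2 fold change -0.27), beside 11.4% of all tested genes called lower. Their summed level was 7711 to 8937 CPM in air and 6426 to 7170 CPM in CNC. The endothelial junction gene Cdh5 fell 1.29-fold (adjusted p = 2.5e-05 by edgeR). The ratio of Fscn1 to Cdh5 differed by 0.08 on the log2 scale (2-sided exact permutation test, adjusted p = 0.343). The ratio of Zbtb46 to Cdh5 was 1.19-fold higher in CNC (adjusted p = 0.0119, 5 of 6 CNC rats above the air range). With the clock score as a covariate 2 endothelial markers were called lower. The part of endothelium in the values of Fscn1 and Zbtb46 was not tested.

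Macrophage markers moved in the other direction. Of 12 tested macrophage and monocyte markers 7 rose and 1 fell (Csf1r), beside 13.2% of all tested genes called higher and 11.4% lower. Their median log2 fold change was 0.44, and 3 were called higher with the clock score. Their summed level was 693 to 825 CPM in air and 746 to 1064 CPM in CNC, and Marco was listed at 0 in every library. Cd68, a lysosomal glycoprotein of macrophages, rose 2.03-fold (adjusted p = 6.1e-06 by edgeR). Relative to Cd68, Cd86 was 1.42-fold lower in CNC (2-sided exact permutation test, adjusted p = 0.017) and Clec10a was 1.6-fold lower (adjusted p = 0.0159), with 3 of 6 CNC rats outside the air range in each. The part of macrophages in the rise of Cd86 was not tested. The Csf1r call was lost without any 1 of air replicates 1, 4, 5 and 6 and CNC replicates 2, 3 and 6.

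**Figure D3:**
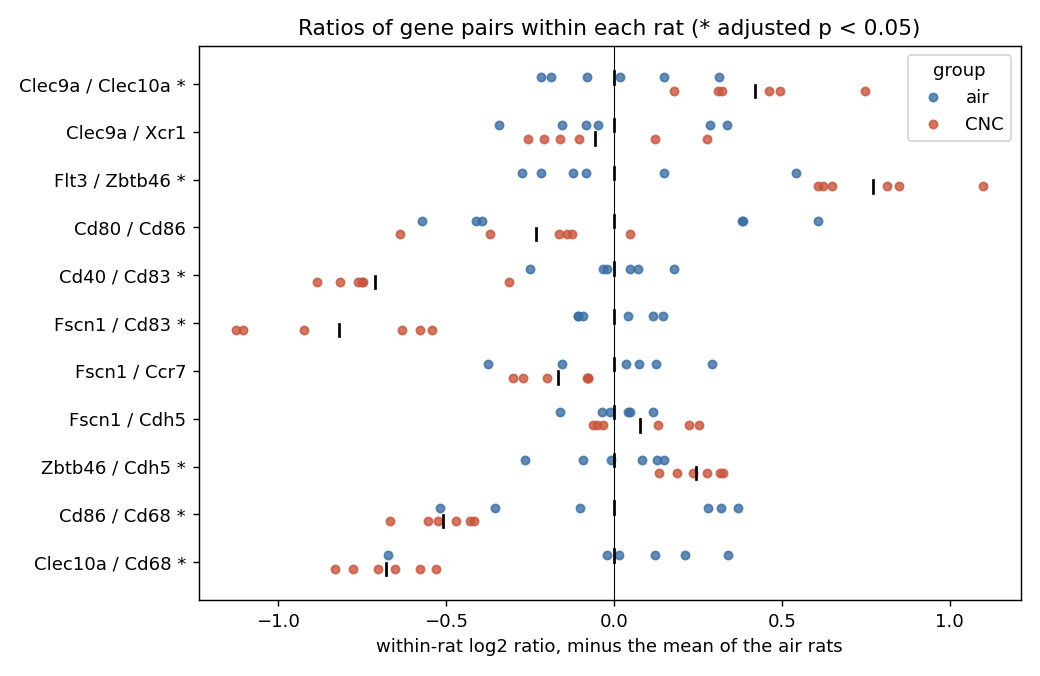
Within-rat log2 ratios of 11 gene pairs, each shown as the difference from the mean of the air rats (horizontal axis); blue points are the 6 air rats, red points the 6 CNC rats and bars the group means, and an asterisk marks an adjusted p under 0.05. The groups are apart for Flt3 to Zbtb46, Cd40 to Cd83 and Fscn1 to Cd83.

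The counts for B and T cell markers stand beside 13.2% of all tested genes called higher and 11.4% called lower. Of 11 tested B cell markers 1 rose (Fcrla) and 1 fell (Bank1, a call lost without air replicate 2), and their sums overlapped between the groups (142 to 176 CPM in air, 132 to 155 CPM in CNC). Without air replicate 6, 2 B cell markers fell. Of 12 T cell markers 0 rose and 2 fell, Tcf7 and Cd8a, with sums of 260.2 to 347 CPM in air and 260.3 to 287 CPM in CNC. Only 1 of these passed without any 1 of air replicates 1, 3, 4 and 5 and CNC replicates 1, 2, 4, 5 and 6. Neutrophil markers rose in 9 of 12 cases and fell in 0.

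Other genes of the type 1 dendritic cell subset followed Xcr1 and Clec9a in part. Of 11 listed genes 5 rose and 1 fell, with a median log2 fold change of 0.32. Among all tested genes 13.2% were called higher and 11.4% lower. Wdfy4, needed for cross-presentation in mouse, rose from 48.05 ± 3.53 to 74.4 ± 9.49 CPM (n = 6 in each group, SD; adjusted p = 3.1e-05 by edgeR). Irf8, the transcription factor that specifies this subset, rose 1.29-fold (adjusted p = 0.000122), and Naaa and Ly75 rose as well. Mean levels of Wdfy4, Irf8 and Naaa in air were 48.05, 57.6 and 278 CPM, against 5.78 CPM for Clec9a. These genes are not particular to dendritic cells, and the part of other cells in their rise was not tested. The adhesion gene Cadm1, which epithelium also expresses, fell 1.13-fold (adjusted p = 0.00605). Batf3, the partner of Irf8, was at 1.97 ± 0.64 CPM in air and 2.43 ± 0.74 CPM in CNC and did not pass (adjusted p = 0.361 by edgeR).

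Of 10 tested genes linked to the type 2 subset 4 rose and 0 fell, with a median of 0.25. Irf4, a transcription factor of that subset and of lymphocytes, rose 1.66-fold (adjusted p = 0.000515 by edgeR), and the integrin gene Itgam, shared with macrophages and neutrophils, rose 1.71-fold (adjusted p = 5.1e-05). Clec4a1 and Sirpa also rose. Without air replicate 4, and with scaling by library size alone, 1 gene of this list fell. For plasmacytoid dendritic cells, which make type I interferon, the counts stand beside 13.2% of all tested genes called higher and 11.4% called lower. Of 10 tested genes 2 rose (Tlr7 and Runx2) and 1 fell (Tcf4), with a median of 0.02. Leaving out single rats moved those counts to between 0 and 2 in each direction: the count of rises fell below 2 without any of air replicates 1, 2, 3, 4 and 6 and CNC replicates 1, 2, 4 and 6, and the count of falls moved without air replicate 1 (to 0), air replicate 6 (to 2) or CNC replicate 3 (to 2).

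Of 13 tested genes of mature, migrating dendritic cells 6 rose and 0 fell, with a median of 0.23 on the log2 scale. Beside this, 13.2% of all tested genes were called higher and 11.4% lower. The chemokine genes Ccl22 and Ccl17, which draw Ccr4-bearing T cells, rose from 0.588 ± 0.371 to 2.83 ± 0.695 CPM and from 0.457 ± 0.174 to 1.64 ± 0.404 CPM (n = 6 in each group, SD; adjusted p = 4.3e-05 and 9.7e-05 by edgeR). Tnfaip2 rose 1.85-fold. Lamp3, which alveolar type 2 cells also express, rose 1.48-fold. Il15ra and the NF-kappa B subunit gene Relb rose too, and Ccr7, as given above, did not pass. The other tested genes of this list did not pass either. Il12a, Il12b, Nudt17 and Ido1 were below the count filter. The part of other cell types in these rises was not tested.

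**Figure D4:**
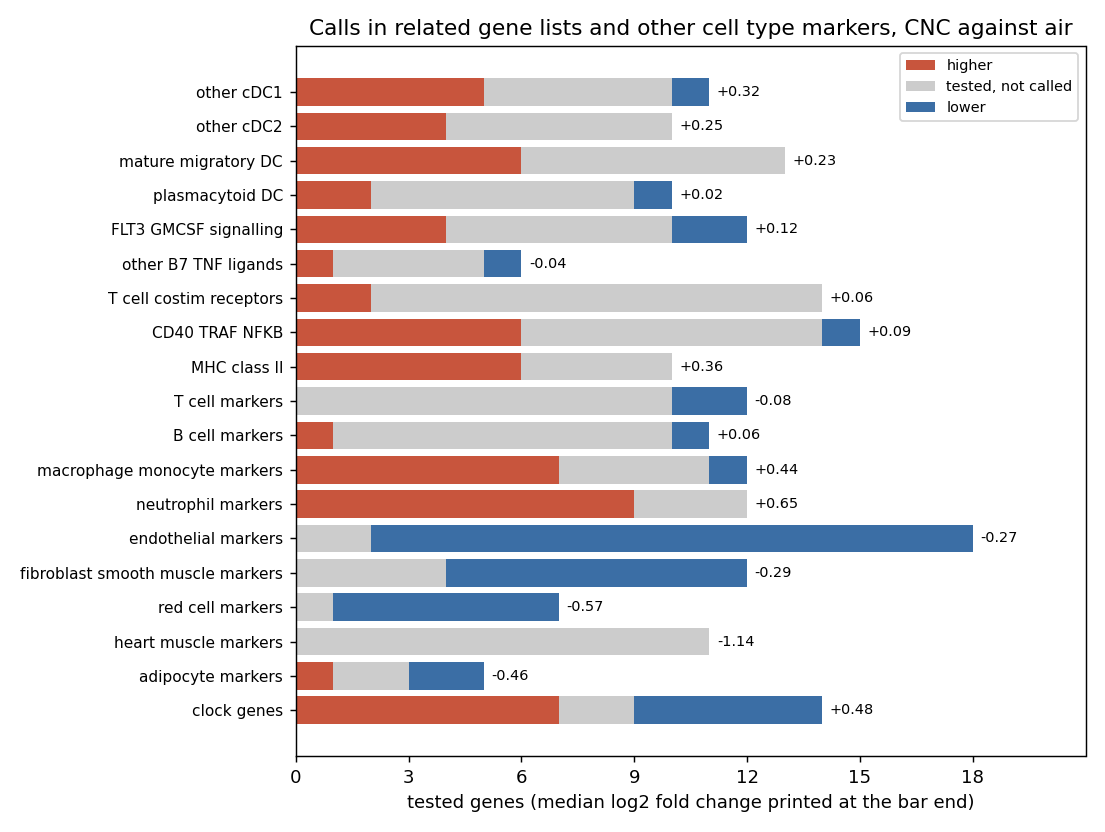
Number of tested genes called higher (red), not called (grey) and lower (blue) in CNC for each related gene list and each list of other cell types, with the median log2 fold change at the bar end. Rises make up 5 of 11 type 1 dendritic cell genes and 7 of 12 macrophage genes, and falls make up 16 of 18 endothelial genes.

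In the growth factor pathways of dendritic cells 4 of 12 genes rose and 2 fell. Across all tested genes the shares were 13.2% higher and 11.4% lower. The middle value of this list was 0.12 on the log2 scale. The receptor chain genes of GM-CSF, a growth factor of macrophages and dendritic cells, rose, Csf2ra 1.56-fold and Csf2rb 1.65-fold (adjusted p = 3.5e-05 and 3.1e-05 by edgeR). Csf2, which encodes GM-CSF itself, rose from 3.25 ± 0.60 to 5.54 ± 0.678 CPM (n = 6 in each group, SD; adjusted p = 0.000533). Stat3 rose 1.08-fold, and Kit and Csf1r fell. As given above, the Csf1r call rested on single rats, and when any 1 of those was left out 1 gene of this list fell. Macrophages and neutrophils, whose markers mostly rose, may also make these genes, and their part in these changes was not tested.

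Of 6 other tested ligand genes 1 rose and 1 fell, beside 13.2% of all tested genes called higher and 11.4% called lower. The 6 were of the B7 and TNF families, except Cd48 and Lgals9. Cd274, which encodes the inhibitory ligand PD-L1, rose from 45.6 ± 2.46 to 63.2 ± 4.5 CPM (n = 6 in each group, SD; adjusted p = 1.1e-05 by edgeR). Cd48, an adhesion ligand of leukocytes, fell 1.06-fold, a call lost without any 1 of air replicates 1, 2, 4, 5 and 6 and CNC replicates 3, 5 and 6. Another 6 genes, among them Pdcd1lg2, Tnfsf4 and Cd70, were below the count filter.

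On the T cell side, 2 of 14 tested receptor genes rose, a share close to the 13.2% of all tested genes called higher. Tnfrsf9, the costimulatory receptor 4-1BB, rose from 0.694 ± 0.317 to 2.26 ± 0.424 CPM (n = 6 in each group, SD; adjusted p = 0.000227 by edgeR), and Havcr2, which encodes the inhibitory receptor TIM-3 also found on dendritic cells and macrophages, rose 2.21-fold (adjusted p = 0.00205). None of the 14 fell as reported, and 1 fell without air replicate 6 or without CNC replicate 6. The receptors that bind Cd80 and Cd86 did not pass: Cd28 was at 6.77 ± 1.57 CPM in air and 6.58 ± 1.17 CPM in CNC (adjusted p = 0.913), and Ctla4 was at 0.687 ± 0.140 and 0.900 ± 0.235 CPM (adjusted p = 0.294 by edgeR). Cd40lg, the ligand of Cd40, was at 1.19 ± 0.402 and 1.25 ± 0.346 CPM (adjusted p = 0.898).

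Of 15 genes of TRAF and NF-kappa B signalling, listed for their role downstream of Cd40, 6 rose and 1 fell, with a median of 0.09. Of all tested genes 13.2% were called higher and 11.4% lower. Cd40 itself did not pass, and a link of these changes to Cd40 was not tested. The inhibitor gene Nfkbia rose 1.26-fold, Birc3 1.24-fold and Traf3 1.11-fold (adjusted p = 0.0108, 0.00848 and 0.00959 by edgeR), and the subunit gene Rela fell 1.08-fold. The Rela call was lost without air replicate 1, CNC replicate 1 or CNC replicate 5. Of 10 MHC class II genes 6 rose and 0 fell, and their summed level was 2074 to 2503 CPM in air and 2878 to 3407 CPM in CNC. With the clock score no gene of the Cd40 list, 0 of the type 2 list, 2 of the type 1 list, 3 of the mature list and 2 of the MHC class II list were called higher.

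Within a group the 10 genes did not vary as a block. Over 45 pairs, with each group's mean subtracted, Pearson's r of log2 CPM across 12 rats ran from -0.67 to 0.84 with a median of 0.05, and no pair passed after adjustment over the pairs (9 had an unadjusted permutation p under 0.05). The largest r, of Clec10a and Cd83 (0.84, permutation adjusted p = 0.0720), did not pass. Neither did the rho of that pair (0.83, permutation adjusted p = 0.0559). By Spearman's rho 2 pairs passed, both only just, and neither passed by Pearson's r. Their adjusted p rest on random permutations and lie so close to 0.05 that another draw could lose both. Clec9a and Cd83 had r = 0.82 (permutation adjusted p = 0.0819) and rho = 0.84 (permutation adjusted p = 0.0499). Without the 2 rats farthest from the median their r was 0.81. Xcr1 and Fscn1 had r = -0.67 (permutation adjusted p = 0.0819) and rho = -0.72 (permutation adjusted p = 0.0499). Without the 2 farthest rats their r was -0.77. Xcr1 and Clec9a were only loosely related (r = 0.44, permutation adjusted p = 0.719; rho = 0.41, permutation adjusted p = 0.864; r = 0.12 without 2 rats). Genes of a rat share a library and its scaling. By rat, air replicate 3 was lowest of its group for 5 of the 10 genes, CNC replicate 6 for 4, and CNC replicate 1 was highest of its group for 4.

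**Figure D5:**
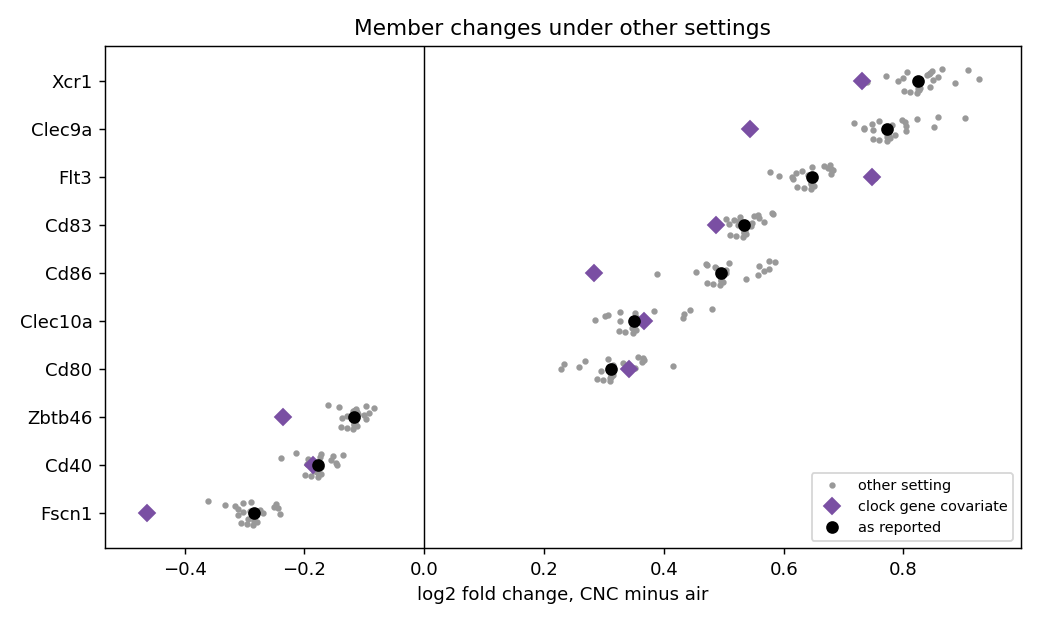
Log2 fold change of each gene as reported (black), under 25 other settings (grey) and with a clock gene covariate (purple diamonds). No gene changes sign under the settings shown, of which 3 (other thresholds and robust edgeR) leave the fold change as it is by construction. The covariate moves Clec9a, Cd86, Xcr1 and Cd83 toward 0. It moves Fscn1, Zbtb46 and Flt3 away from 0, and Clec10a, Cd80 and Cd40 slightly so.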

How the data were processed

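The authors deposited a table of read counts, one whole number per symbol and library, not normalized. Per the submitters' processing notes, HISAT2 2.1.0 and HTSeq 0.11.2 were used along with Trimmomatic 0.35, SAMtools 1.8, bcl2fastq 2.19 and Cufflinks, with no role stated. Per the labels' protocols, stranded libraries of polyadenylated RNA were made from total RNA with 12 PCR cycles. The count table's name gives the build Rnor6; annotation and strand setting were not given in the sources used here, so reads of overlapping or antisense genes may be shared. All 10 symbols matched RefSeq genes of another build (GRCr8), whose positions are given for promoters alone.

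Genes were kept by filterByExpr (minimum count 10, minimum total 15), scaled by TMM and tested in R 4.3.3 with edgeR 4.0.16 (glmQLFit and glmQLFTest, 2-sided), air against CNC by the treatment label. The standard error is the log2 fold change divided by the square root of F. Replicate numbers follow accession order and only name a rat. Which rats shared a cage (3 per cage) was not analysed here. Over 30 pairs within a group the chi-square per degree of freedom ran from 2.69 to 8.36, so no library looked like a repeat. Within-rat ratios used log2 of CPM + 0.1 and a 2-sided exact permutation test over 924 splits, adjusted over 11 ratios. Correlations used 100000 permutations within groups. The clock score is the mean centred log2 CPM (prior count 2) of clock genes, with Arntl, Npas2 and Clock reversed. On simulated data of 14940 genes, the test found 38% of 50 genes set to 1.2-fold, 78% at 1.5-fold, 92% at 2-fold and 100.0% at 4-fold, and 7 of its 161 calls were false. Only these genes were changed there, a far smaller share than the 24.6% called in the data. Counts were drawn independently for each gene, so these rates may not hold for the data. Members, lists, ratios and settings were chosen with earlier results of these data known, as were the pairs of rats left out together. Genes named from a list are at most 4 called ones, by smallest adjusted p, with exceptions in the other direction. The motifs and the promoters shown were chosen after matches were seen. A first set with longer forms of the NF-kappa B and PU.1 motifs and an ETS-IRF composite motif was searched. It was then replaced by shorter forms, with a loosened AP-1 motif in place of the composite one. Cd83 was then shown in place of Cd86. Where a list had few calls all were named, and Flt3lg, Batf3, Cd28, Ctla4, Cd40lg, Il15ra, Relb and Stat3 were added by role after their values were seen. DESeq2 1.42.0 and limma 3.58.1 gave alternatives.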

Additional observations from a re-analysis of the deposited data

How the results depend on the processing

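Over 26 other settings the log2 fold change of each of the 10 genes kept its sign; 3 of these (both other thresholds and robust edgeR) cannot change it. Of the 260 resulting values 238 stayed on the same side of the threshold, 15 lost a call and 7 gained one. With the clock gene covariate 426 genes were higher and 227 lower among all tested genes, against 1981 and 1710 as reported, and 1 of the 10 was higher and 0 lower. The standard error of Xcr1 was then 0.30, against 0.15. At an adjusted p of 0.01, 1244 genes were higher and 902 lower, and 0 of the 10 were lower. Without CNC replicates 3 and 6 together 2 of the 10 were lower. Leaving out 1 rat at a time gave 1712 to 1998 genes higher and 1379 to 1726 lower, 4 to 6 of the 10 higher and 0 to 1 lower. Scaling by library size alone gave 1683 genes higher and 2151 lower, with 5 and 1 of the 10. The ratio of Clec9a to Xcr1 turned in sign with a pseudocount of 1 CPM (0.036) and without air replicate 1 (0.013) or air replicate 5 (0.0021), against -0.05 as reported and -0.12 to 0.013 over the rats left out; between 7 and 8 of the 11 ratios passed when 1 rat was left out and 7 with the other pseudocount. The cause of these shifts was not tested. No paired analysis was possible because the replicate numbers are accession order and pair no rats. Depth limits Cd80 most, at 9 to 21 reads a library.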
